A study of Mus musculus with 21 samples.

Results

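Intestinal Lgr5 cells of mice fed the NWD2 diet were compared with those of mice fed the AIN control diet. The comparison used 6 of the 21 sequenced libraries of the study, 3 per diet (NWD2 1 to 3 and AIN 1 to 3), chosen by the diet in their labels. All 37310 genes in the count table entered it except the synthetic ERCC spike-in RNAs, and 16050 genes had enough counts to be tested.

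All 6 libraries came from 3-month-old mice of the strain Lgr5EGFPcre-ERT2, which carries a reporter and an inducible recombinase at the Lgr5 locus. The labels name no floxed allele and no tamoxifen. AIN mice received AIN76A, a purified rodent diet, and NWD2 mice the diet of that name, both from weaning. The makeup of NWD2 is not in the labels; as background, the NWD family are purified Western-style formulas derived from AIN76A, and NWD2 is known as the member in which calcium and vitamin D are restored to a higher level. AIN 1 and AIN 2 came from females and AIN 3 from a male, while NWD2 1 and NWD2 2 came from males and NWD2 3 from a female. The cells were the brightest Lgr5-EGFP cells of dispersed crypts, sorted and sequenced in bulk, and whether each library was 1 mouse or a pool is not stated. The p-values therefore measure the spread between samples. In the main test that spread was estimated over all 21 libraries of the study, not over these 6 alone.

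Lgr5 is a receptor for R-spondins that marks the columnar stem cells between Paneth cells at the crypt base. These cells divide often under Wnt and Notch signals and give rise to absorptive enterocytes and to secretory goblet, Paneth, enteroendocrine and tuft cells. They are known for a high mitochondrial activity, supported by their Paneth neighbours, and diets rich in fat are known to act on them through PPAR target genes of fatty acid oxidation. Vitamin D acts in the intestine through its receptor Vdr, whose targets include calcium transport genes such as Trpv6 and S100g.

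Depth was high, with 42664400 to 88931614 gene counts in each library and 19679 to 21897 genes detected by at least 1 count. Log2 CPM (counts relative to library size, scaled by the TMM method) correlated best between AIN 3 and NWD2 3 (r = 0.986), and AIN 3 correlated with AIN 1 and AIN 2 at 0.965 and 0.96. On the first principal component of the 6 libraries, with 35.3% of the variance, AIN 1 and AIN 2 lay at -42.6 and -74.8. AIN 3 lay at 37.9, beside the NWD2 libraries at 13.6, 33.4 and 32.5. AIN 1 and AIN 2 thus stood apart from the other 4 libraries, and many differences below were smaller without that pair. Leaving out the pair also left only AIN 3, from a male, in AIN, while NWD2 held both sexes. The fit held a sex term, and the part of sex in these changes was not tested. The labels give no batch. They give index pairs, and AIN 2 and NWD2 1 carried the same pair, so they were not sequenced together in a single lane. Spike-ins took 0.985% to 6.48% of counts in 5 libraries, and AIN 2 held 12 spike-in counts.

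The sorted cells carried stem cell markers together with transcripts of differentiated crypt cells. In TPM (relative transcript abundance, which corrects for gene length), Lgr5 stood at 1.62, 4.55 and 11 in AIN 1 to 3 and at 26.7, 11.6 and 9.16 in NWD2 1 to 3. Olfm4, another marker of crypt base stem cells, stood at 1220, 2360 and 3460 TPM in AIN and at 11400, 3460 and 2450 in NWD2. NWD2 1 was the highest library for both markers and AIN 1 the lowest. The fatty acid binding protein Fabp1, an enterocyte gene, reached 7520 to 12300 TPM in AIN and 2780, 13600 and 14600 in NWD2. Tff3 of goblet cells (11100 to 29500 TPM) and the Paneth defensin Defa24 (7420 to 13500 TPM) were abundant in all 6 libraries. The fibroblast marker Col1a1 was near 0, at 0.0396 TPM or less. In bulk samples, fewer cells of a type and less RNA per cell cannot be told apart, so a level of any such marker can reflect either.

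No gene differed between NWD2 and AIN past an adjusted p of 0.05 in edgeR's quasi-likelihood test, which gave 0 of 16050 genes (0%). The smallest adjusted p (Benjamini-Hochberg) was 0.718. At an unadjusted p under 0.05 there were 267 genes on the higher side in NWD2 (1.66%) and 832 on the lower side (5.18%). In 639 genes (3.98%) all 3 NWD2 libraries lay above all 3 AIN libraries, and in 980 (6.11%) they lay below. DESeq2, another count test, called 4 of 16020 genes (0.025%), all lower in NWD2. The median standard error of a log2 fold change was 0.403. The excess on the lower side was not seen in all settings. Of the genes under 0.05, 24.3% were higher in NWD2 in the main test, 54.2% with the 6 libraries alone, 51.9% without AIN 1 and AIN 2 and 95.9% with limma on log2(TPM + 1), where the log2 differences of all genes shifted by a median of 0.38. With no filter on low counts, edgeR called 157 genes, 26 higher and 131 lower, and 155 of them were among the 16050. These included Rbp7, Pdia2, E030010A14Rik, Sec61g, Il18, Ndufb4, Usmg5, Tomm5, Lamb3 and Cyp4a10, described below, and also genes that rested on 1 library (mt-Atp6, mt-Co2 and mmu-mir-2134-1). None of the single genes below passed adjustment in this test with all libraries, and a value after ± is the standard error of a log2 fold change unless marked SD.

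Of the 4 genes that DESeq2 called, 2 code for known proteins of the intestine or secretory pathway and had separated libraries at moderate counts. Rbp7 (ENSMUSG00000028996.3), a cellular retinol binding protein, had 93.24, 59.27 and 51.6 CPM in AIN and 19.57, 16.14 and 18.54 CPM in NWD2. The 3 NWD2 libraries were close to each other and all lay below the lowest AIN library. On the log2 scale NWD2 differed from AIN by -1.85 ± 0.40 (SE; adjusted p = 0.718 by edgeR and adjusted p = 0.0463 by DESeq2). With AIN 1 and AIN 2 left out, the Rbp7 difference was -1.50, and without AIN 3 it was -2.03 (adjusted p = 0.0258, edgeR).

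Pdia2 (ENSMUSG00000024184.9), a protein disulfide isomerase of the endoplasmic reticulum, had 9.33, 11.9 and 6.861 CPM in AIN and 2.813, 2.329 and 2.387 CPM in NWD2. Here too every NWD2 library lay below every AIN library. The Pdia2 log2 fold change was -1.75 ± 0.44 (DESeq2 adjusted p = 0.0310), and it was -1.50 without AIN 1 and AIN 2. The clone gene E030010A14Rik showed the same order, with 108.7, 62.73 and 32.31 CPM in AIN against 12.37, 19.95 and 15.28 in NWD2 (-1.80 ± 0.37, DESeq2 adjusted p = 0.0123). The call on mmu-mir-2134-1 (DESeq2 adjusted p = 0.00525) rested on a single library, AIN 2, with 21.28 CPM, while the other AIN libraries had 0.1794 and 0 CPM.

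The largest differences on the higher side were taken among abundant genes whose libraries did not overlap. Lamb3, a chain of the basement membrane protein laminin 332, had 4.605, 7.933 and 15.48 CPM in AIN and 29.84, 25.56 and 24.89 CPM in NWD2 (1.49 ± 0.39). Fras1, an extracellular matrix protein of epithelial basement membranes, had 3.349, 3.803 and 5.488 CPM in AIN against 6.999, 8.622 and 11.13 (1.08 ± 0.29). In Lamb3 as in Fras1, AIN 3 was the AIN library nearest to NWD2. Without AIN 3 Lamb3 stood at 2.14 (adjusted p = 0.0235, edgeR), and without AIN 1 and AIN 2 at 0.80. Fgfr4, the receptor through which FGF15 and FGF19 act on bile acid synthesis in liver, had 4.824, 8.06 and 10.57 CPM in AIN and 21, 21.03 and 15.22 CPM in NWD2 (1.23 ± 0.47).

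Further genes on this side were Cacna2d2, Fam115c, Dpysl5, Slc6a9, Hr, Adrbk2, Chrm1 and Plekhg5, with log2 fold changes of 1.06 to 1.27. They are of mixed function, among them a calcium channel subunit (Cacna2d2), a glycine transporter (Slc6a9), a muscarinic receptor (Chrm1) and a corepressor that binds the vitamin D receptor (Hr). Cacna2d2 leaned on 1 library: NWD2 2 had 15.61 CPM, while NWD2 1 and NWD2 3 had 4.148 and 4.456 CPM against 3.507 to 3.838 CPM in AIN, and its difference without NWD2 2 was 0.29. Hr had 4.027, 6.042 and 8.962 CPM in AIN and 15.52, 10.33 and 14.73 CPM in NWD2.

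**Figure D1:**
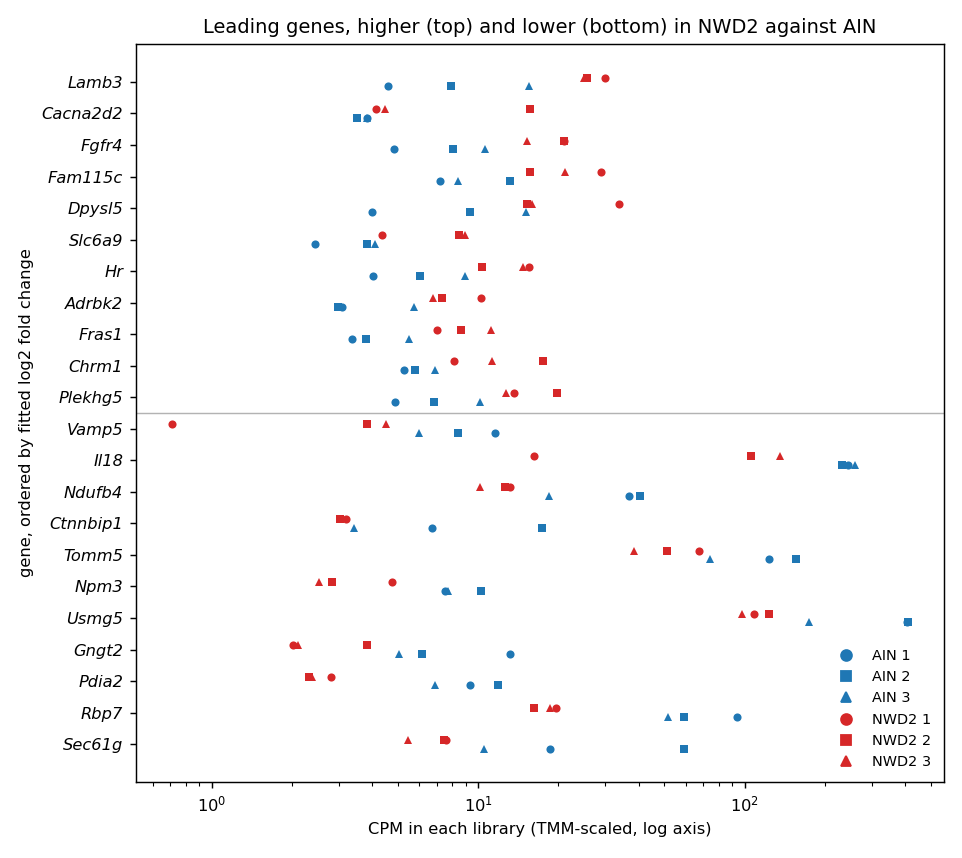
CPM of leading genes in each library, higher in NWD2 above the line and lower below it (log axis); blue points are AIN and red points NWD2, with a shape for each replicate. The groups do not overlap for any of these genes, as the rule that chose them required; AIN 3 (blue triangles) is often the AIN library nearest to NWD2, as for Lamb3, Usmg5 and Ndufb4.

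The largest differences on the lower side included several short genes of protein translocation and of the mitochondrion. Sec61g, a subunit of the channel through which proteins enter the endoplasmic reticulum, had 18.64, 59.13 and 10.53 CPM in AIN and 7.583, 7.442 and 5.44 CPM in NWD2 (-2.10 ± 0.58). AIN 2 was by far the highest library, and the Sec61g difference was -1.16 without AIN 2 and -0.48 without AIN 1 and AIN 2. Usmg5, a small subunit associated with ATP synthase, had 405.5, 409.1 and 175 CPM in AIN and 108.2, 123.7 and 97.94 CPM in NWD2 (-1.62 ± 0.49). For Usmg5, AIN 3 lay closer to the NWD2 libraries than to the other AIN libraries, and its difference without AIN 1 and AIN 2 was -0.52. Tomm5, part of the import pore of the outer mitochondrial membrane, had -1.50 ± 0.47 with 123, 155.6 and 74.33 CPM in AIN and 67.5, 50.98 and 38.47 CPM in NWD2, and -0.18 without AIN 1 and AIN 2.

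Khk, the ketohexokinase of fructose breakdown, had 1100, 626.4 and 648.1 CPM in AIN and 121.4, 416.9 and 442.4 CPM in NWD2 (-1.22 ± 0.44). For Khk NWD2 1 was the lowest library, and NWD2 2 and NWD2 3 still lay below all AIN libraries. Il18, an epithelial cytokine, had 244.9, 231.2 and 260.5 CPM in AIN and 16.18, 106 and 135.7 CPM in NWD2 (-1.45 ± 0.55). The AIN libraries were alike for Il18, NWD2 1 was again the lowest, and the difference was -1.91 without AIN 1 and AIN 2. Further genes of this side were Gngt2, Npm3, Ctnnbip1 and Vamp5, with log2 fold changes of -1.73 to -1.42. Ctnnbip1 had -0.71 without AIN 2 and -0.05 without AIN 1 and AIN 2.

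Nuclear genes of oxidative phosphorylation, the chain of complexes by which mitochondria oxidize NADH and make ATP, lay on the lower side in NWD2 as a group. All 78 tested members had a negative log2 fold change, with a median of -0.864 against 0 over all 16050 genes. In 40 of them (51.3%, against 5.18% of all genes) the unadjusted p was under 0.05. In 58 (74.4%, against 6.11%) every NWD2 library lay below every AIN library. The count of 40 depended on the spread taken from all 21 libraries. With the 6 libraries alone, 81 of 15018 genes were lower at an unadjusted p under 0.05. They included 3 of 37 genes of complex I and 3 of 41 of complexes II to V. The medians of these lists stayed negative there, at -0.628 and -0.643. None of the 78 members passed adjustment. These genes are short, with a median relative length of 0.398 in complex I and 0.41 in complexes II to V against 0.957 over all genes, and short genes as a class were lower in NWD2 (below).

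Complex I, the NADH dehydrogenase, was covered by 37 nuclear genes with a median of -0.844. Its list median was 8.76, 8.19 and 7.83 log2 CPM in AIN 1 to 3 and 7.41, 7.74 and 7.57 in NWD2 1 to 3. The groups did not overlap, and AIN 3 lay within 0.1 log2 of the highest NWD2 library. Ndufb4, an accessory subunit, had 36.76, 40.5 and 18.48 CPM in AIN and 13.22, 12.65 and 10.18 CPM in NWD2 (-1.48 ± 0.44). Ndufb6, another subunit of the membrane arm, had 277.4, 160.5 and 148.1 CPM against 104.3, 111.6 and 93.83 (-1.07 ± 0.41). Ndufs3, a core subunit of the arm that receives electrons, had 245, 211.1 and 155.9 CPM against 120.3, 138.5 and 123 (-0.79 ± 0.29). Ndufb4, Ndufb6 and Ndufs3 had -0.46, -0.30 and -0.11 when AIN 1 and AIN 2 were left out.

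Complexes II to V and cytochrome c were covered by 41 genes with a median of -0.896, and 23 had an unadjusted p under 0.05 on the lower side (56.1%). The list median was 9.84, 9.46 and 8.86 log2 CPM in AIN and 8.44, 8.73 and 8.53 in NWD2. Cycs, which codes for cytochrome c, the electron carrier between complexes III and IV, had 413.7, 463.8 and 238.9 CPM in AIN and 127.7, 183.6 and 174.9 CPM in NWD2 (-1.23 ± 0.39). Atp5f1, a stator subunit of ATP synthase, had 1430, 1175 and 972.2 CPM in AIN and 651.6, 763.4 and 747 CPM in NWD2 (-0.75 ± 0.26). Atp5l, a small membrane subunit of the same enzyme, had 27.23, 27.32 and 12.07 CPM against 9.294, 9.378 and 8.958 (-1.28 ± 0.44). In each of these genes AIN 3 was the lowest AIN library and still above the NWD2 libraries. With AIN 1 and AIN 2 left out, Cycs, Atp5f1 and Atp5l had -0.42, -0.33 and -0.25.

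Proteins of the mitochondrial ribosome, which translates the few genes of the mitochondrial genome, showed the same direction. All 75 nuclear genes of this list were negative, with a median of -0.686. Of these, 42 (56%, against 5.18% of all genes) had an unadjusted p under 0.05. With the 6 libraries alone only 4 of the 75 did, and the median was -0.513. Mrpl47, of the large subunit, had 54.17, 54.19 and 46.2 CPM in AIN and 31.7, 28.66 and 29.11 CPM in NWD2 (-0.91 ± 0.28). In Mrpl47 the 3 libraries of each diet were close together and AIN 3 stayed with AIN 1 and AIN 2, although its difference without that pair was smaller, at -0.43. Mrpl18 had 171.6, 133.8 and 106.9 CPM in AIN and 83.82, 78.81 and 72.15 CPM in NWD2 (-0.93 ± 0.28), and Mrpl20 had -1.07 ± 0.36; without AIN 1 and AIN 2 they had -0.26 and -0.27.

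The protein genes of the mitochondrial genome itself did not follow. The 11 tested members had a median of -0.145, and no member had separated libraries. The list median was 10.57, 9.91 and 9.38 log2 CPM in AIN and 9.65, 9.59 and 9.86 in NWD2, so AIN 3 was the lowest of all libraries. Of the members under an unadjusted p of 0.05, mt-Atp6 (5.35) rested on 50.9 CPM in NWD2 3, and mt-Co2 (-5.05) rested on 13.72 CPM in AIN 1. The other AIN and NWD2 libraries had under 1 CPM of either gene.

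Cytosolic ribosomal protein genes, which build the ribosomes of the cytoplasm, all had negative log2 fold changes as well, with a median of -0.792 over 80 genes. Their libraries overlapped in most cases. An unadjusted p under 0.05 was found in 16 (20%, against 5.18% of all genes on the lower side). With the 6 libraries alone it was found in 0 of the 80, and the median was -0.488. Separated libraries were found in 3 (3.75%, against 6.11% of all genes). The list median was 8.23, 8.06 and 7.06 log2 CPM in AIN and 7.46, 7.19 and 6.8 in NWD2, and AIN 3 lay inside the range of NWD2. Rpl19, of the large subunit, had 351.8, 381.5 and 162.1 CPM in AIN against 196.5, 168.1 and 121.6 (-1.07 ± 0.43). Rps7, of the small subunit, had 161.1, 229.2 and 72.14 CPM against 97.78, 79.23 and 55.38 (-1.14 ± 0.47). In both genes AIN 3 lay below NWD2 1, and reads of ribosomal protein genes may be shared with processed copies. Without AIN 1 and AIN 2, Rpl19 turned to 0.23 and Rps7 to 0.31.

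**Figure D2:**
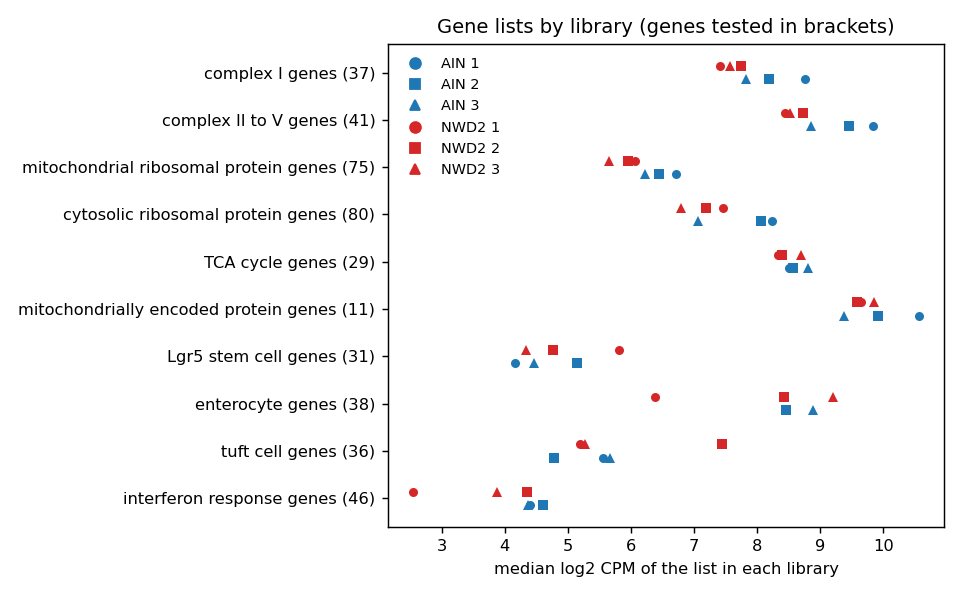
Median log2 CPM over the tested genes of 10 lists in each library, with the number of genes in brackets; blue points are AIN and red points NWD2. The oxidative phosphorylation and mitochondrial ribosome lists separate the diets with AIN 3 (blue triangle) nearest to NWD2, AIN 3 falls inside NWD2 for cytosolic ribosomal proteins, NWD2 1 stands apart in stem cell, enterocyte and interferon genes, and NWD2 2 in tuft cell genes.

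These medians moved with the choice of AIN libraries. Without AIN 3 they were -1.23 for complex I, -1.28 for complexes II to V, -1.02 for mitochondrial and -1.34 for cytosolic ribosomal proteins. Without AIN 1 and AIN 2, where AIN 3 alone stood for its diet and was assumed to vary like the other groups, they were -0.097, -0.183, -0.05 and 0.358. On log2(TPM + 1), where the log2 differences of all genes shifted by a median of 0.38, they were -0.371, -0.422, -0.218 and -0.252. The direction of the cytosolic ribosomal list thus turned without AIN 1 and AIN 2, where the other 3 lists stayed below 0 but close to it.

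Gene length moved with the same libraries. Over the 16050 genes, the fitted log2 fold change correlated with relative length at 0.356 (Spearman, across genes, which are not independent replicates). The genes were split by relative length into 5 bins of 3210 genes. In the shortest bin the median was -0.358, with 299 genes lower and 18 higher at an unadjusted p under 0.05. In the longest bin it was 0.22, with 41 lower and 113 higher. Each library's own deviation from the mean of the 6 correlated with length at -0.483, -0.176 and 0.301 in AIN 1 to 3 and at 0.118, 0.018 and 0.347 in NWD2 1 to 3. AIN 1 was thus rich in short transcripts and AIN 3 and NWD2 3 in long ones. With a smooth trend on gene length per library as an offset in the fit, the correlation was 0.015 and the medians were -0.6 for complex I, -0.619 for complexes II to V, -0.528 for mitochondrial and -0.61 for cytosolic ribosomal proteins. The part of fragment length or RNA quality in these differences was not tested.

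**Figure D3:**
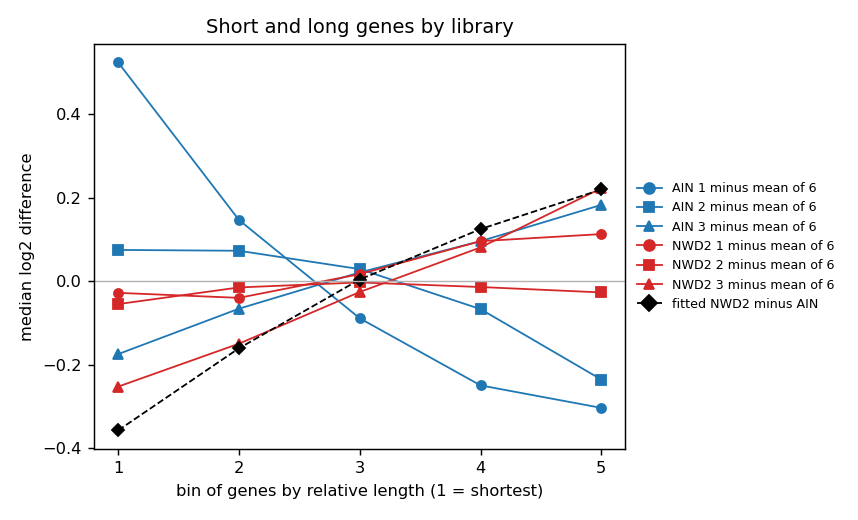
Genes in 5 equal bins by relative length (x axis, 1 the shortest) against the median log2 difference: coloured lines give each library minus the mean of the 6 libraries, and the dashed line the fitted NWD2 minus AIN difference. AIN 1 falls from short to long genes while AIN 3 and NWD2 3 rise, and the fitted difference goes from -0.358 to 0.22.

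The TCA cycle, which feeds electrons to the respiratory chain, differed less and depended less on single AIN libraries. Its 29 genes had a median of -0.363. An unadjusted p under 0.05 was found in 5 members, all lower (against 5.18% of all genes), and 13 had separated libraries on the lower side (against 6.11%). Their relative length was typical, at a median of 0.977. Without AIN 3 the median was -0.384 and without AIN 1 and AIN 2 it was -0.394. On log2(TPM + 1), where the log2 differences of all genes shifted by a median of 0.38, it was 0.037. Pdhb, a subunit of pyruvate dehydrogenase, which turns pyruvate into acetyl-CoA, had 237.1, 263.5 and 260.9 CPM in AIN and 148.2, 159.8 and 158.1 CPM in NWD2 (-0.79 ± 0.24). The 3 libraries of each diet were tight for Pdhb, with a mean of 253.8 ± 14.55 CPM against 155.3 ± 6.291 (SD, n = 3).

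Sdhd, a membrane anchor of succinate dehydrogenase, which belongs to the TCA cycle and to complex II alike, had 1482, 1103 and 1219 CPM in AIN and 648.3, 873.4 and 822.7 CPM in NWD2 (-0.74 ± 0.26). For Sdhd, AIN 3 lay above AIN 2, and the difference was -0.54 without AIN 1 and AIN 2. Glycolysis genes had a median of -0.115 over 28 genes, with 6 under an unadjusted p of 0.05, all lower (21.4%, against 5.18% of all genes). Gapdh, a glycolytic dehydrogenase with many processed copies, had 1982, 2121 and 1323 CPM in AIN and 466.4, 1026 and 1005 CPM in NWD2 (-1.09 ± 0.37). Pgk1, which makes ATP in the next step, had 202.2, 187.7 and 168.1 CPM against 112, 131.9 and 119.4 (-0.69 ± 0.24). AIN and NWD2 libraries of Pgk1 did not overlap. Gapdh had -0.62 and Pgk1 -0.34 without AIN 1 and AIN 2.

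Regulators of mitochondrial biogenesis had a median of -0.128 over 26 genes, with 4 lower at an unadjusted p under 0.05 (15.4%, against 5.18% of all genes). Ppargc1a, the coactivator PGC-1α that drives mitochondrial gene expression, had 76.95, 52.52 and 106.7 CPM in AIN and 22.86, 57.47 and 104.7 CPM in NWD2 (-0.36 ± 0.52, adjusted p = 0.886 by edgeR). The groups overlapped throughout, and the sign of Ppargc1a turned to 0.33 without AIN 3. Esrra, the nuclear receptor ERRα that acts with it, had 29.17, 70.6 and 24.5 CPM in AIN and 15.07, 16.59 and 23.74 CPM in NWD2 (-1.04 ± 0.34). AIN 2 was the highest library for Esrra, and AIN 3 lay just above NWD2 3. Without AIN 2 alone Esrra had -0.52. Phb, an inner membrane scaffold, had -0.68 ± 0.25, and Ssbp1, which binds mitochondrial DNA, had -0.88 ± 0.37; without AIN 1 and AIN 2 they had -0.26 and 0.11.

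Stem cell genes lay slightly on the higher side. The 31 Lgr5 stem cell genes had a median of 0.357. At an unadjusted p under 0.05, 2 members were higher (6.45%, against 1.66% of all genes) and none lower. Lgr5 (ENSMUSG00000020140.9) had 9.489, 24.36 and 45.3 CPM in AIN and 87.17, 48.39 and 36.67 CPM in NWD2 (1.05 ± 0.50). The diets overlapped for Lgr5, since AIN 3 lay above NWD2 3, and its difference was 0.69 without NWD2 1, 1.77 without AIN 3 and 0.38 without AIN 1 and AIN 2. Rnf43, a Wnt-induced ligase that removes Wnt receptors, had 26.37, 38.04 and 63.31 CPM in AIN and 105, 59.75 and 72.22 CPM in NWD2 (0.84 ± 0.34, and 0.36 without AIN 1 and AIN 2). By library, the median level of these genes was 4.16, 5.14 and 4.47 log2 CPM in AIN and 5.81, 4.77 and 4.33 in NWD2, with NWD2 1 on top. Without NWD2 1 the list's median fold change was 0.049. Among Wnt targets, 2 of 23 were higher at an unadjusted p under 0.05, one of them Myc, a growth regulator, at 0.84 ± 0.39 and at 0.52 without NWD2 1.

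Notch genes, which keep stem cells undifferentiated and set the choice between absorptive and secretory fate, had 4 of 21 members higher at an unadjusted p under 0.05 (against 1.66% of all genes) and none lower. Dll1, a Notch ligand of secretory progenitors, had 33.95, 39.84 and 65.67 CPM in AIN and 90.03, 83.35 and 83.94 CPM in NWD2 (0.89 ± 0.35). The receptor Notch1 had 7.875, 12.27 and 17.47 CPM against 31.47, 16.28 and 23.83 (0.87 ± 0.32). Atoh1, the transcription factor that commits cells to the secretory lineage, had 60.44, 64.36 and 58.27 CPM in AIN and 81.65, 107.9 and 81.73 CPM in NWD2 (0.59 ± 0.27). AIN libraries were alike for Atoh1 and all lay below NWD2, whereas Notch1 overlapped at AIN 3. Dll4, another ligand, had 0.82 ± 0.37. Dll1, Dll4 and Notch1 had 0.34, 0.33 and 0.54 without AIN 1 and AIN 2. The 13 reserve and regenerative stem cell genes had a median of 0.012, with 7 positive and 6 negative. By library, their median level was 2.66, 2.77 and 2.47 log2 CPM in AIN and 2.2, 1.88 and 2.4 in NWD2. Only 1 member had an unadjusted p under 0.05 (7.69% higher, against 1.66% of all genes). This was Clu, a marker of regenerating crypts, with 0.7974, 0.9612 and 0.9004 CPM in AIN and 2.074, 1.861 and 2.658 CPM in NWD2 (1.29 ± 0.41).

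Differentiated cell types differed more between libraries than between diets. The 38 enterocyte genes had a median of -0.201, and the list stood at 6.38 log2 CPM in NWD2 1 against 8.42 and 9.21 in NWD2 2 and NWD2 3 and 8.45 to 8.88 in AIN. Without NWD2 1 the median was 0.197. The 36 tuft cell genes, of chemosensory cells, had a median of 0.798, and the list stood at 7.45 log2 CPM in NWD2 2 and between 4.78 and 5.67 in the other libraries. Without NWD2 2 the tuft median was -0.311. Sh2d7, of tuft cells, showed this in single values, with 64.85, 49.88 and 132.7 CPM in AIN and 96.23, 402.9 and 103.8 CPM in NWD2, and so did their transcription factor Gfi1b, with 55.33 CPM in NWD2 2 and 7.257 to 15.09 CPM elsewhere. Without NWD2 2, Sh2d7 had 0.27 and Gfi1b 0.06. NWD2 2 also had the most Ptprc, the leukocyte marker CD45 that some tuft cells express, at 23.6 TPM against 2.26 to 8.23. Its summed level of the lymphocyte and leukocyte list was 91.4 TPM against 27.85 to 43.89, of 39 genes in the files with 1 at 0 in all 6 libraries; the part of other cells in the tuft difference was not tested. Stromal, endothelial and erythroid genes had a median of 0.388 over 18 tested genes. At an unadjusted p under 0.05, 2 were higher (11.1%, against 1.66% of all genes). These were the matrix protein Prelp (0.80 ± 0.35, and 0.46 without NWD2 1) and Col6a2. Col6a2 had 0 CPM in all AIN libraries and 0.0454 CPM or less in NWD2 (0, 3 and 1 counts), too few to show a difference. The summed level of the list was 62.58, 81.28 and 136.2 TPM in AIN and 207, 150.1 and 135.2 TPM in NWD2, with NWD2 1 highest. Of this sum, Prelp alone held 14.3, 29.02 and 53.6 TPM in AIN and 144, 51.39 and 52.14 TPM in NWD2.

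Paneth cell genes had a median of -0.568 over 24 genes, and 9 had separated libraries on the lower side (37.5%, against 6.11% of all genes). At an unadjusted p under 0.05, 2 were higher (8.33%, against 1.66% of all genes) and none lower. By library, the list median was 4, 4.21 and 4.26 log2 CPM in AIN and 3.87, 4.42 and 4.61 in NWD2, so NWD2 2 and NWD2 3 were highest. Paneth genes are short, with a median relative length of 0.301 against 0.957 over all genes. The defensin genes among them are near-identical copies that can share reads. Defa23 (5.49 ± 2.02) had 0.9851 and 1.286 CPM in NWD2 1 and NWD2 2 and about 0.02 CPM or less in the other libraries. Goblet genes had a median of 0.02 over 23 genes, enteroendocrine genes 0.255 over 31 and BMP pathway genes -0.144 over 16. At an unadjusted p under 0.05, 1 goblet gene was higher and 1 lower (4.35% each, against 1.66% and 5.18% of all genes). No enteroendocrine or BMP pathway gene was under 0.05. Antimicrobial and Reg lectin genes had -0.501 over 26, with 1 higher (3.85%, against 1.66% of all genes) and 3 lower (11.5%, against 5.18%). Among the lower was Retnlb, a goblet cell product, at -1.63 ± 0.69 with under 1 CPM in each library.

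Genes of vitamin D action and calcium transport showed no common direction, with a median of 0.068 over 30 genes. At an unadjusted p under 0.05, 1 was higher (3.33%, against 1.66% of all genes). Vdr, the vitamin D receptor, had 338.2, 373.2 and 746.4 CPM in AIN and 839, 674 and 828.9 CPM in NWD2 (0.67 ± 0.35, adjusted p = 0.72 by edgeR). AIN 3 lay inside the NWD2 range, and Vdr had 0.04 without AIN 1 and AIN 2 and 1.26 without AIN 3. S100g, the calcium buffer calbindin-D9k, had 101.5, 106 and 43.2 CPM in AIN and 5.211, 37.41 and 45.55 CPM in NWD2 (-1.38 ± 0.86, adjusted p = 0.737 by edgeR). NWD2 1 was lowest, and NWD2 3 lay above AIN 3, with a difference in S100g of -0.61 without AIN 1 and AIN 2. Trpv6, the apical calcium channel, had 2, 2 and 0 counts in AIN and 1 count in each NWD2 library, too few to show a difference. Cyp24a1, which degrades the hormone, had 0 counts in all AIN libraries and 0, 0 and 1 in NWD2, and was not tested.

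Lipid and one-carbon genes gave few differences, beside 1.66% of all genes higher and 5.18% lower at an unadjusted p under 0.05. Fatty acid oxidation and PPAR target genes had a median of 0.047 over 44 genes, with 2 higher and 1 lower at an unadjusted p under 0.05. Cyp4a10, a fatty acid hydroxylase, had 1.176, 3.444 and 4.867 CPM in AIN and 3.876, 15.9 and 19.97 CPM in NWD2 (2.07 ± 0.80). For Cyp4a10 the diets overlapped at NWD2 1, and its difference was 1.15 without AIN 1 and AIN 2. Ppard, the PPARδ receptor, had 23.19, 17.66 and 13.76 CPM in AIN against 5.794, 8.592 and 13.36 (-0.90 ± 0.34). Cholesterol and fatty acid synthesis genes had a median of -0.186 over 40, with 2 higher and 2 lower. Me1, the malic enzyme that supplies NADPH, had 2.133, 6.053 and 3.666 CPM against 5.327, 9.499 and 21.03 (1.69 ± 0.59), while Fdps and Pmvk of the mevalonate pathway had -0.74 ± 0.31 and -0.76 ± 0.31, and -0.19 and -0.11 without AIN 1 and AIN 2.

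Fat absorption genes had a median of -0.061 over 37 genes and bile acid and xenobiotic genes -0.063 over 33, each with 1 higher member, Mgll (0.92 ± 0.43), a monoglyceride lipase, and Ces1f (1.25 ± 0.55), a carboxylesterase. Mgll had 46.17 CPM in NWD2 2 and 12.2 to 18.82 CPM elsewhere, and 0.27 without NWD2 2. Ces1f had 0.38 without AIN 1 and AIN 2 and 2.05 without AIN 3. Folate, methionine and choline genes had a median of 0.045 over 54, with 3 higher (5.56%, against 1.66% of all genes) and none lower. These were Cbs (1.03 ± 0.48), which carries homocysteine into cysteine synthesis, Pcyt1b (1.34 ± 0.64) of phosphatidylcholine synthesis and the choline transporter Slc44a2 (0.84 ± 0.40). Pcyt1b had 0.2392, 0.8134 and 1.737 CPM in AIN and 2.113, 2.526 and 2.183 CPM in NWD2, with AIN 3 again nearest to NWD2. Pcyt1b had 0.12, Slc44a2 0.29 and Cbs 0.68 without AIN 1 and AIN 2.

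Stress, immune and cell cycle genes gave small counts, beside 1.66% of all genes higher and 5.18% lower at an unadjusted p under 0.05. Unfolded protein response genes had a median of -0.284 over 34 genes, with 1 higher (2.94%) and 6 lower (17.6%) at an unadjusted p under 0.05. Their median stayed at -0.265 without AIN 3 and -0.364 without AIN 1 and AIN 2. On log2(TPM + 1), where the log2 differences of all genes shifted by a median of 0.38, it was 0.12. Manf, a secreted factor of the endoplasmic reticulum, had 222.6, 264.9 and 172 CPM in AIN and 106.2, 124.7 and 132.1 CPM in NWD2 (-0.88 ± 0.32), with no overlap, and -0.41 without AIN 1 and AIN 2. Glutathione and NRF2 target genes had a median of -0.293 over 46, with 4 lower, among them thioredoxin Txn1 (-1.03 ± 0.43) and peroxiredoxin Prdx1 (-0.64 ± 0.28). Sod2, the mitochondrial superoxide dismutase, had 293.8, 255.6 and 221.2 CPM against 158.5, 194.7 and 182.1 (-0.58 ± 0.24). Txn1, Prdx1 and Sod2 without AIN 1 and AIN 2 had -0.20, -0.18 and -0.18.

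Interferon response genes had a median of -0.362 over 46 genes with 4 lower (8.7%, against 5.18% of all genes). The list stood at 2.55 log2 CPM in NWD2 1 against 3.88 to 4.6 in the other libraries. Oas1a, an antiviral RNA sensor, had 88.22, 95.67 and 63.22 CPM in AIN and 23.32, 70.72 and 39.03 CPM in NWD2 (-0.78 ± 0.34, and -0.52 without NWD2 1). Antigen presentation genes had a median of -0.193 over 32, with 2 lower (6.25%, near the 5.18% of all genes). S phase genes had -0.118 over 53 and G2 and M phase genes -0.059 over 51, with 1 and 2 lower (1.89% and 3.92%). DNA repair genes had 0.21 over 60, with 1 lower, Xpa, a nucleotide excision repair factor (-1.30 ± 0.42). Immediate early genes, which report tissue handling as well as signalling, had -0.208 over 41 with 1 higher and 3 lower. Jund, an AP-1 subunit of that list, had 12.17 CPM in AIN 2 and 1.329 to 2.731 CPM in the other libraries (-1.61 ± 0.67). Without AIN 2, Jund had -0.28 and Xpa -0.64.

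Chromatin regulators, which are long genes (median relative length 2.43), had a median of 0.246 over 56 genes. Of these 1 was higher (1.79%, near the 1.66% of all genes), the acetyltransferase Ep300 (0.69 ± 0.29, and 0.04 without AIN 1 and AIN 2). Regional identity factors had 0.003 over 22 with 3 lower (13.6%, against 5.18%), Klf5 (-0.93 ± 0.43), Cdx1 (-1.12 ± 0.44) and Gata6 (-0.67 ± 0.28). Cdx1, an intestinal homeobox factor, had 194.8 CPM in AIN 2 and 37.49 to 62.06 CPM in the other libraries. Klf5, a transcription factor of proliferating crypt cells, likewise had 248.2 CPM in AIN 2 and 47.55 to 82.11 CPM elsewhere. Without AIN 2, Klf5 had -0.12 and Cdx1 -0.25. Klf5, Cdx1 and Jund all turned to the higher side without AIN 1 and AIN 2, at 0.31, 0.23 and 0.55, and Gata6 had -0.02.

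**Figure D4:**
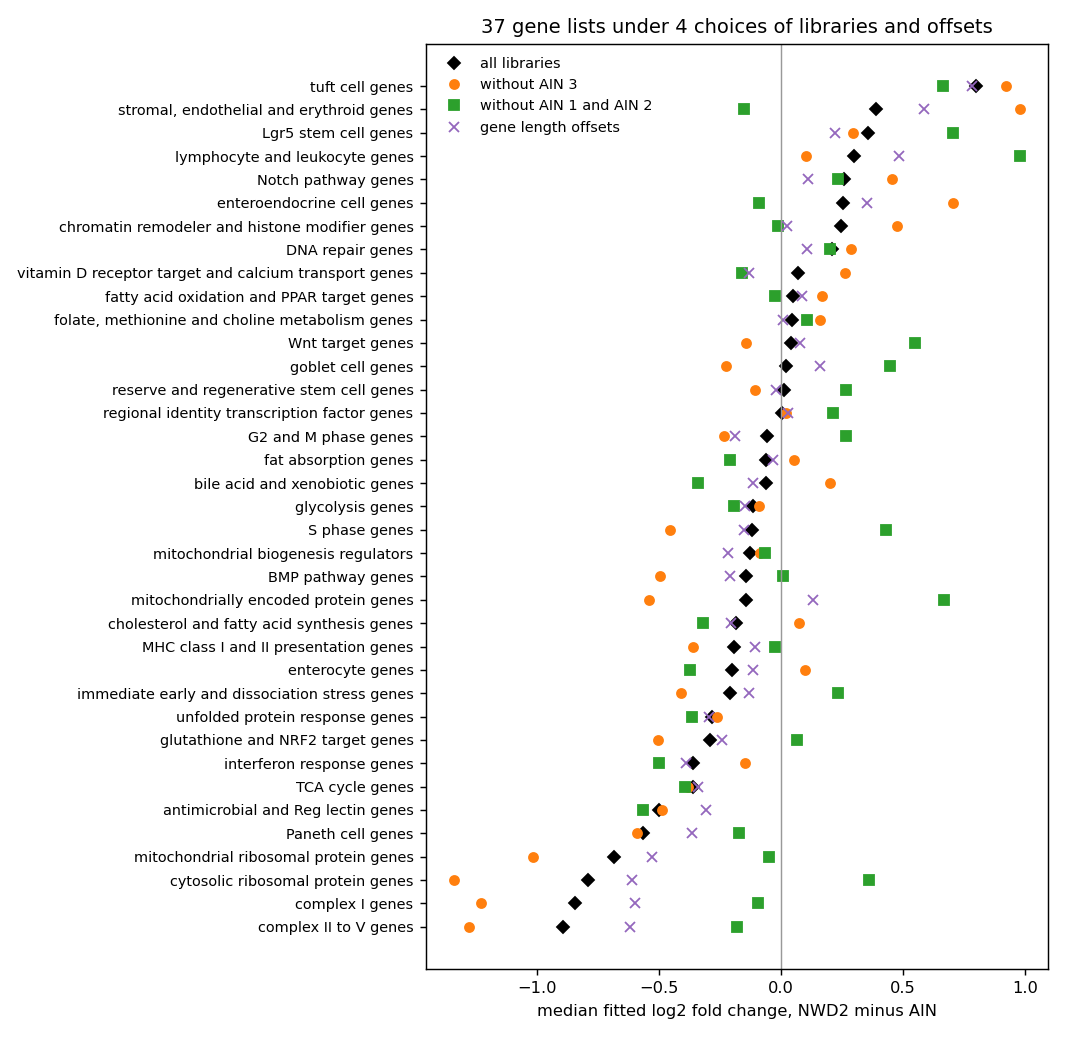
Median fitted log2 fold change of NWD2 minus AIN for 37 gene lists (x axis), with all libraries (black), without AIN 3 (orange), without AIN 1 and AIN 2 (green) and with gene length offsets (crosses). The oxidative phosphorylation and ribosomal lists lie at -0.896 to -0.686 with all libraries and move toward 0 or past it in the green points, while TCA cycle and unfolded protein response genes stay within -0.394 to -0.265 in all 4 settings.

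Leaving out AIN 3, the AIN library that resembled NWD2, turned the comparison from 0 calls to 840. It also left only females in AIN, while NWD2 1 and NWD2 2 came from males and NWD2 3 from a female. The fit held a sex term, and the part of sex in these calls was not tested. Of 16352 genes, 353 were higher in NWD2 (2.16%) and 487 lower (2.98%) at an adjusted p under 0.05 in edgeR. The genes called higher were long and those called lower short, with median relative lengths of 2.16 and 0.609. No gene passed with AIN 3 in the fit, so this choice favoured genes in which AIN 3 lay toward NWD2, and its position in them is not independent evidence. AIN 3 lay beyond the midpoint toward NWD2 in 349 of the 353 and in 464 of the 487. It lay within the NWD2 range or past it in 324 and 379. On a scale where 0 is the mean of AIN 1 and AIN 2 and 1 the mean of NWD2, its median position was 1.23 and 1.04. For most of these genes AIN 3 thus had the NWD2 level, and diet and whatever set AIN 1 and AIN 2 apart cannot be told apart.

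The genes called without AIN 3, named here after their values were seen, held 4 of 37 genes of complex I, 7 of 41 of complexes II to V, 16 of 75 mitochondrial and 16 of 80 cytosolic ribosomal protein genes and 5 of 51 of G2 and M phase, all lower, against 2.98% of all genes. They held 5 of 56 chromatin regulators, all higher, against 2.16%. Cpt1a, which carries long-chain fatty acids into mitochondria, had 107.2 and 121 CPM in AIN 1 and AIN 2 and 339.6, 314.7 and 356.3 CPM in NWD2 (1.87 ± 0.44, adjusted p = 0.028, edgeR without AIN 3). AIN 3 had 382.6 CPM of Cpt1a, more than any NWD2 library. Fasn, the fatty acid synthase, had 32.78 and 41.68 CPM in AIN 1 and AIN 2, 140.7 in AIN 3 and 93.24, 69.72 and 142.2 in NWD2 (1.75 ± 0.40, adjusted p = 0.027). AIN 3 lay just below NWD2 3 for Fasn, inside the NWD2 range.

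Without AIN 1 and AIN 2, edgeR called 0 of 17191 genes, with 164 higher and 152 lower at an unadjusted p under 0.05. Of the leading genes described above, Cacna2d2 and Fam115c stayed above 1 on the log2 scale there, at 1.02 and 1.45. Rbp7, Pdia2, Il18, E030010A14Rik, Vamp5 and Khk stayed below -1, at -1.50, -1.50, -1.91, -1.11, -1.08 and -1.03. Fras1, Slc6a9, Plekhg5, Dpysl5, Hr and Adrbk2 had 0.66, 0.68, 0.59, 0.51, 0.49 and 0.41, and Npm3 and Gngt2 had -0.99 and -0.75. AIN 3, from a male, alone stood for its diet in these values. The rule that chose the leading genes required AIN 3 to lie outside the NWD2 range, so a kept direction is no independent result. Cacna2d2 leaned on NWD2 2, as described above, and had 0.29 without that library alone.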

How the data were processed

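RNA was sequenced in 21 libraries of sorted intestinal Lgr5 cells with SMART-Seq v4 and Nextera XT, per the labels. The kit keeps no strand information, so a gene and an overlapping antisense gene may share reads. As deposited, the data are whole read counts of 37310 genes and 92 spike-ins and a matching TPM table. The submitters' processing notes list STAR 2.4.2a, HTSeq 0.6.1, edgeR and the build mm9, without an annotation release, so no coordinates or sequences are printed. The deposited counts are not normalized; the deposited TPM values are divided by gene length, and count over TPM, scaled to its median in a library, is the relative length used here.

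The main test was edgeR 4.0.16 (R 4.3.3, quasi-likelihood F test, two-sided, TMM scaling, filterByExpr). All 21 libraries entered 1 fit with 7 groups and a sex term, leaving 13 residual degrees of freedom. Benjamini-Hochberg adjustment ran over 16050 genes with a threshold of 0.05. SE is the fold change divided by the root of F. The test was checked on simulated counts with changes larger than those of the leading genes and no effect of sex or gene length. That check did not measure the power for smaller differences. CPM uses TMM-scaled library sizes, with a prior count of 2 on the log2 scale. No 2 replicates were a repeated library. DESeq2 1.42.0 and limma 3.58.1 served as alternatives.

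The members and the 37 gene lists were chosen with earlier results of these data known; list counts and medians are descriptions without a test. Single genes were named as the 12 largest differences each way among genes whose mean level reached log2 CPM 2, with an unadjusted p under 0.05 and no overlap between the diets, leaving out sex-linked and unnamed genes, plus up to 3 members per list with the smallest p, DESeq2's calls and 6 fixed genes. Genes described from the comparison without AIN 3 were picked after that comparison. A few genes named by this rule are left out.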

Additional observations from a re-analysis of the deposited data

How the results depend on the processing

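Counts of genes past an adjusted p of 0.05 were 0 in edgeR with RLE scaling, a stricter filter, no sex term, length offsets, 6 or 9 libraries and in limma on TPM; DESeq2 gave 4 and no filter on low counts gave 157 (26 higher, 131 lower). Genes under an unadjusted p of 0.05 numbered 1099 in the main test, 1830 with no filter, 177 with the 6 libraries alone, 193 with the 9 of AIN, NWD1 and NWD2, and 316 without AIN 1 and AIN 2, an alternative chosen after seeing the data. Leaving out 1 library at a time gave 0 to 840 adjusted and 499 to 4012 unadjusted calls. Both highest counts came without AIN 3, and the lowest unadjusted count without AIN 2. With the 6 libraries alone, several lists held fewer genes lower at an unadjusted p under 0.05. Among these lists were TCA cycle (1 of 29), glycolysis (0 of 28) and unfolded protein response genes (1 of 34). Of 21 Notch genes, 1 was higher there. Paneth cell genes went the other way, with 5 of 23 lower, and so did 1 of 13 reserve and regenerative stem cell genes.

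On log2(TPM + 1) and log2(TPM + 0.1) the log2 differences of all genes shifted by medians of 0.38 and 0.411. The vitamin D list had a median of 0.48 on the latter. In the same order, list medians were -0.371 and -0.372 for complex I and -0.422 and -0.422 for complexes II to V. They were -0.252 and -0.253 for cytosolic and -0.218 and -0.225 for mitochondrial ribosomal proteins. Without AIN 1 and AIN 2 the medians of these lists were, in turn, -0.097, -0.183, 0.358 and -0.05. Leaving out 1 library gave -1.23 to -0.506, -1.279 to -0.574, -1.34 to -0.51 and -1.016 to -0.467, and -0.311 to 1.278 for tuft cell genes. The causes of these shifts were not tested.

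Signs turned without AIN 1 and AIN 2 for Brp44 (0.066), Btg1 (0.67), Cdx1 (0.234), Cks2 (0.563), Fev (0.253), Ier5 (0.393), Jund (0.546), Klf5 (0.313), mmu-mir-2134-1 (2.972), mt-Co2 (3.33), Rpa3 (0.302), Rpl19 (0.229), Rpl5 (0.149), Rps7 (0.31), Ssbp1 (0.114), Trpv6 (2.637), Ube2c (0.416) and Xpa (0.183). Ppargc1a turned to 0.032 and 0.044 on the TPM scales, where the log2 differences of all genes shifted by medians of 0.38 and 0.411. With 1 library left out Ppargc1a ranged from -0.841 (without NWD2 3) to 0.328 (without AIN 3). The range was -6.447 to 1.37 (without AIN 1) for mt-Co2 and -1.312 (without NWD2 3) to 8.971 for mt-Atp6.

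Replicate numbers were not treated as pairs in the main test. Deviations of same-numbered libraries correlated at -0.137, -0.132 and 0.132. The highest correlation between an AIN and an NWD2 library was 0.232, for AIN 2 and NWD2 1. Deviations were taken from the mean of each diet, so these values cannot show whether mice were paired. With the replicate block edgeR called 0 genes and 917 had an unadjusted p under 0.05 (340 higher, 577 lower); with the block and length offsets it called 0, with 881. Depth limits genes with a few counts, such as Trpv6 and Cyp24a1; 3 libraries per diet limit all comparisons.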
